A study of Homo sapiens with 6 samples.

Results

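The RBM genes are named for the RNA-binding motif of the proteins they encode. They were taken as every listed gene whose symbol starts with RBM followed by a digit, without RBM15, its paralog RBM15B and hyphenated symbols, which left 31 of the 12793 rows. RNA of HCT15, a human cell line long established from a colorectal cancer, was sequenced in 6 libraries. The libraries labelled knockout numbered 3 and carried a guide against RBM15 for CRISPR/Cas9 editing, and the control libraries numbered 3 and carried a control guide, with genotype given as wild type. Culture in RPMI-1640 medium with serum was common to both groups, and the labels name no other agent, no clone and no guide position. The study's question was how the transcripts of these cells respond to loss of RBM15. Levels are FPKM, fragment counts scaled by transcript length and by the library's mapped fragments, given for libraries 1, 2 and 3 of a group in that order, and SE is the standard error of a log2 difference.

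Proteins with an RNA recognition motif bind short stretches of RNA and act at nearly every step of an RNA's life, from splicing in the nucleus to export, decay and translation. RBM15 is one of them and brings the enzyme complex that writes the m6A mark to RNA. The other RBM proteins share the motif and a naming rule but not a single pathway. Some are parts of the spliceosome, some choose between splice sites, some hand RNA to the nuclear exosome for decay, and some work in the nucleolus on the making of ribosomes.

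RBM15 itself had 17.3, 18.5 and 18.03 FPKM in the libraries labelled knockout, against 5.97, 5.89 and 5.51 FPKM in the controls, so its mRNA was higher where a knockout was labelled. On the log2 scale the difference was 1.48 (limma adjusted p = 3.88e-06), and an exact 2-sided permutation test over 20 assignments gave p = 0.1, the smallest that 3 against 3 libraries allow. Every direction below rests on the labels, and "rose" and "fell" describe the libraries labelled knockout relative to the controls. The epithelial and colonic markers were present, 7 of 8, with a summed level of 3481 to 3621 FPKM in the libraries labelled knockout and 3803 to 3896 FPKM in the controls. Most of that sum was KRT8 and KRT18, and KRT8 rose by 0.11 on the log2 scale. Of the 7 markers 5 fell and 1 rose, with a median log2 difference of -0.35. VIL1, the brush border protein villin, had 3.797, 3.69 and 4.12 FPKM in the libraries labelled knockout and 17.2, 16.8 and 16.98 FPKM in the controls (log2 difference -1.89). CDX2, the intestinal transcription factor, had 9.49, 9.28 and 9.78 FPKM in the libraries labelled knockout and 21.1, 20.9 and 20.8 FPKM in the controls (log2 difference -1.06), and the others that fell were EPCAM (-0.35), KRT19 (-0.36) and KRT18 (-0.15). Of 5 leukocyte markers only CD68 was listed, at 6.03 to 7.29 FPKM in the libraries labelled knockout and 2.66 to 3.08 FPKM in the controls. Of 5 fibroblast markers only COL1A1 was listed, at 0.835 to 1.41 FPKM in the libraries labelled knockout and 0.917 to 1.41 FPKM in the controls, and of 3 endothelial markers none was, nor were PTPRC, COL3A1 and PECAM1. The part of these markers in the results below was not tested. Separate cultures are not mentioned in the labels, and the p-values therefore reflect spread between libraries that may be technical. In RNA from many cells, fewer cells expressing a gene and less of its RNA per cell cannot be told apart.

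Among the 31 RBM genes, 12 rose, 2 fell and 17 did not pass the test in the libraries labelled knockout. The increases were led by RBM25, RBM19 and RBM24, each at 1.45 to 1.51 times the control mean, and the 2 genes that fell were RBM43 and RBM47. The share called, 45.2%, was below the 54.5% of all 11451 tested genes. By direction, 38.7% of the RBM genes rose, beside 25.3% of all tested genes, and 6.45% fell, beside 29.2%. The values of the groups did not overlap for 14 of the 31 RBM genes, the same 14 that were called. That share was below the 63% of all tested genes whose values did not overlap. All 31 passed the filter at a mean of 1 FPKM.

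The changes were small in size. Only RBM25 and RBM43 differed by at least 0.5 on the log2(FPKM + 1) scale, 2 of 31, against 13.8% of all tested genes. RBM19 (0.49) and RBM24 (0.47) lay just below, and were at 0.53 and 0.54 with 0.1 FPKM added in place of 1. Both also passed 0.5 on the TPM scale and with quantile normalization. The share of all tested genes past 0.5 was not counted in those fits. The median log2 difference of the RBM genes was 0.11, beside -0.018 for all tested genes. After a joint trend of each library over GC content and transcript length was removed, 6 of the 31 RBM genes rose and 4 fell. In that fit 24.5% of all tested genes rose and 29.4% fell, so both RBM shares were below those of all tested genes. GC content and length were not taken out separately. The 6 were RBM19, RBM24, RBM25, RBM27, RBM38 and RBM41, and the 4 were RBM4, RBM26, RBM43 and RBM47. The RBM transcripts had a median GC content of 44.0%, beside 48.8% over the 11093 tested genes with a value.

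**Figure D1:**
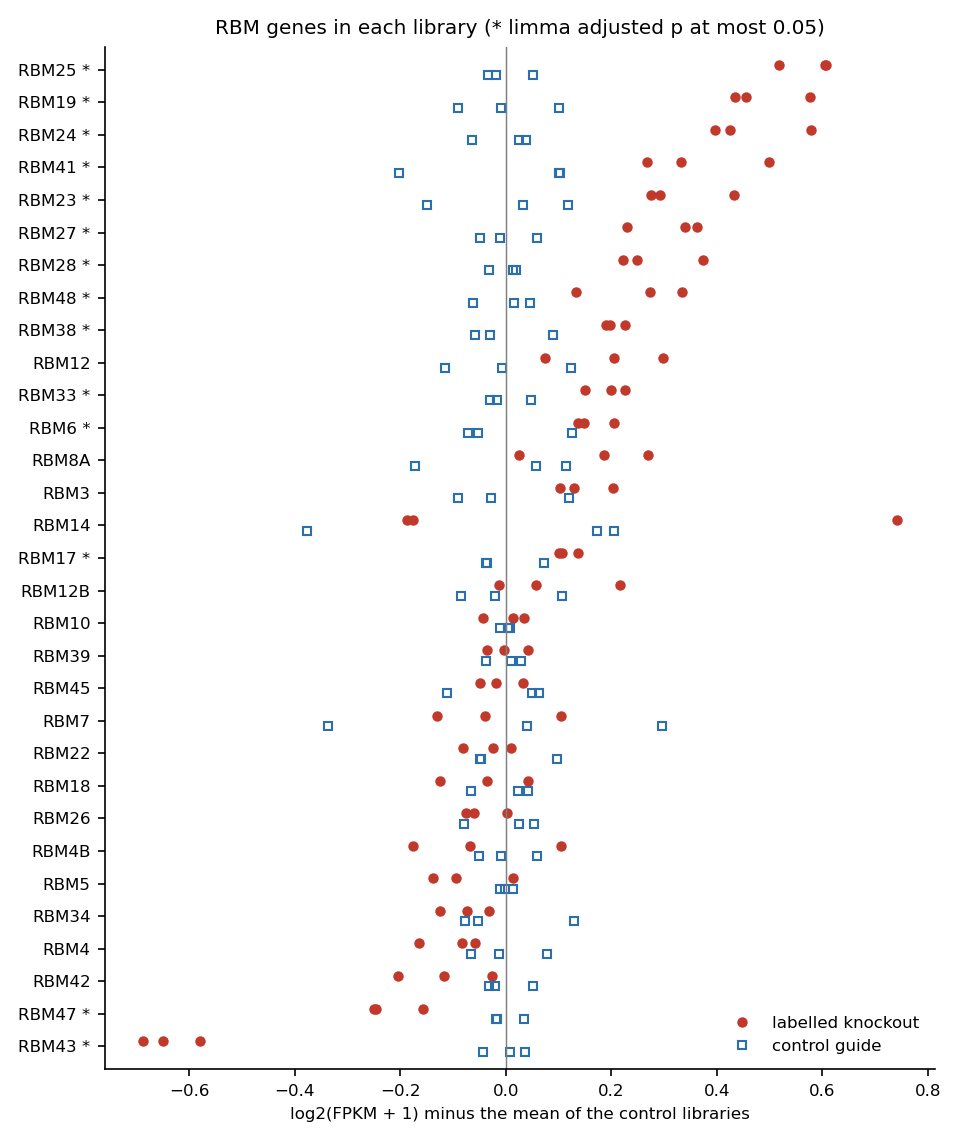
Each row is an RBM gene, each filled circle a library labelled knockout and each open square a control library, placed by log2(FPKM + 1) minus the mean of the control libraries. Rows run by log2 difference, from RBM25 (0.58) at the top to RBM43 (-0.64) at the bottom, and a star marks a limma adjusted p of at most 0.05. RBM14 and RBM7 show the widest spread within a group.

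Levels of the RBM genes, which are comparable between genes because FPKM are scaled by length, spanned a mean over 6 libraries of 3.67 FPKM for RBM43 to 140.1 FPKM for RBM39. RBM39 and RBM3, at 115.6 FPKM, were the most abundant, followed by RBM4 at 64.8 and RBM8A at 57.1 FPKM. In the middle of the order, the median RBM gene stood at 25.6 FPKM, beside 12.7 FPKM for the median tested gene. None of these 4 abundant genes passed the test, while the 4 genes with the largest differences, RBM43, RBM25, RBM19 and RBM24, stood between 3.67 and 36.5 FPKM. RBM11, RBM20 and RBM46 had no row and were not analysed here.

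RBM25, a splicing factor that associates with the U1 particle, which binds the 5′ splice site, showed the largest increase. RBM25 had 42.1, 44.8 and 44.8 FPKM in libraries 1 to 3 of those labelled knockout, against 30.2, 28.7 and 28.4 FPKM in control libraries 1 to 3. The groups lay well apart, with means of 43.9 ± 1.56 FPKM in the libraries labelled knockout and 29.1 ± 0.966 FPKM in the controls (SD, n = 3 each). On the log2 scale RBM25 rose by 0.58 (SE 0.041, limma adjusted p = 6.73e-05). RBM25 (ENSG00000119707) lies on chromosome 14 at 73058436 to 73123898 on the plus strand of GRCh38.

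RBM19 encodes a nucleolar protein with several RNA recognition motifs that acts in the processing of the small ribosomal subunit's RNA. Its values were 11.9, 12.1 and 13.2 FPKM in the libraries labelled knockout and 7.96, 9.24 and 8.48 FPKM in the controls, again without overlap. The means were 12.4 ± 0.728 FPKM in the libraries labelled knockout and 8.56 ± 0.641 FPKM in the controls (SD, n = 3 each). Its log2 difference was 0.49 (SE 0.066, limma adjusted p = 0.000913). RBM19 (ENSG00000122965) lies on chromosome 12 at 113816738 to 113966371 on the minus strand. RBM24, which encodes a regulator of splicing and mRNA stability best known from muscle, had 7.59, 6.57 and 6.72 FPKM in the libraries labelled knockout and 4.85, 4.501 and 4.91 FPKM in the controls, a log2 difference of 0.47 (SE 0.067, limma adjusted p = 0.00121). RBM24 (ENSG00000112183) lies on chromosome 6 at 17281346 to 17293875 on the plus strand.

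The 250 bases before the start that RefSeq annotates for these 3 genes are shown because the genes had the largest increases. RefSeq and GENCODE place the starts differently. The sequences are on GRCh38.p14, read 5′ to 3′ on the gene's strand, at chr14:73058284-73058533 (plus), chr12:113966326-113966575 (minus) and chr6:17281814-17282063 (plus). Capitals mark CCAAT and CACGTG on either strand, where CCAAT reads ATTGG and CACGTG reads the same on the opposite strand. The motifs do not overlap here, and RBM24 holds neither.
RBM25: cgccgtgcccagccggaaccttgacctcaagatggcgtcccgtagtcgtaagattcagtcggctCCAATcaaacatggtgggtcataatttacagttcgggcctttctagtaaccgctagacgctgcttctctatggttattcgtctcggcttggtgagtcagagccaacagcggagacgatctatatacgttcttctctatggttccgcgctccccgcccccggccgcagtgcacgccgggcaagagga
RBM19: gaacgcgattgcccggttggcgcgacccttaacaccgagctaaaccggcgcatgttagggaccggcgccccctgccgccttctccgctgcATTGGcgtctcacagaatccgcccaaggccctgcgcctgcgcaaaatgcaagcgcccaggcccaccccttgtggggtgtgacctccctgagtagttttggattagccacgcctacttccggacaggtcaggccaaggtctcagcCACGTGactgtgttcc
RBM24: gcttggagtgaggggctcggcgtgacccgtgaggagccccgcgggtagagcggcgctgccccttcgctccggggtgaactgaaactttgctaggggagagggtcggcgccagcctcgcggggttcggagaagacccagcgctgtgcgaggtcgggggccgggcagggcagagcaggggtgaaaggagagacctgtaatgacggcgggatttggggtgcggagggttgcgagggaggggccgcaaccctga
CCAAT is the core of the site of the factor NF-Y, and CACGTG is the E-box that MYC and its partner MAX bind. Promoters of 27 RBM genes were in the RefSeq table, and those not matched were RBM12B, RBM39, RBM43 and RBM48. Over windows of 300 bases, 16 of the 27 held CCAAT (59.3%), beside 35.7% of all 27305 windows, which include those of non-coding genes. CACGTG was in 1 of the 27 windows (3.7%), that of RBM19, where it starts at position -16 from the annotated start, beside 7.43% of all windows. TGACGTCA, the full site of CREB-type factors, was in 3 windows (11.1%; RBM12, RBM18 and RBM42), beside 1.98% of all windows. TGATGNAA, a core of sites bound by ATF4, was in 0 of 27, beside 3.67% of all windows. Each motif was searched on both strands. A match describes letters only, and no match says only that these letters are not in this window.

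**Figure D2:**
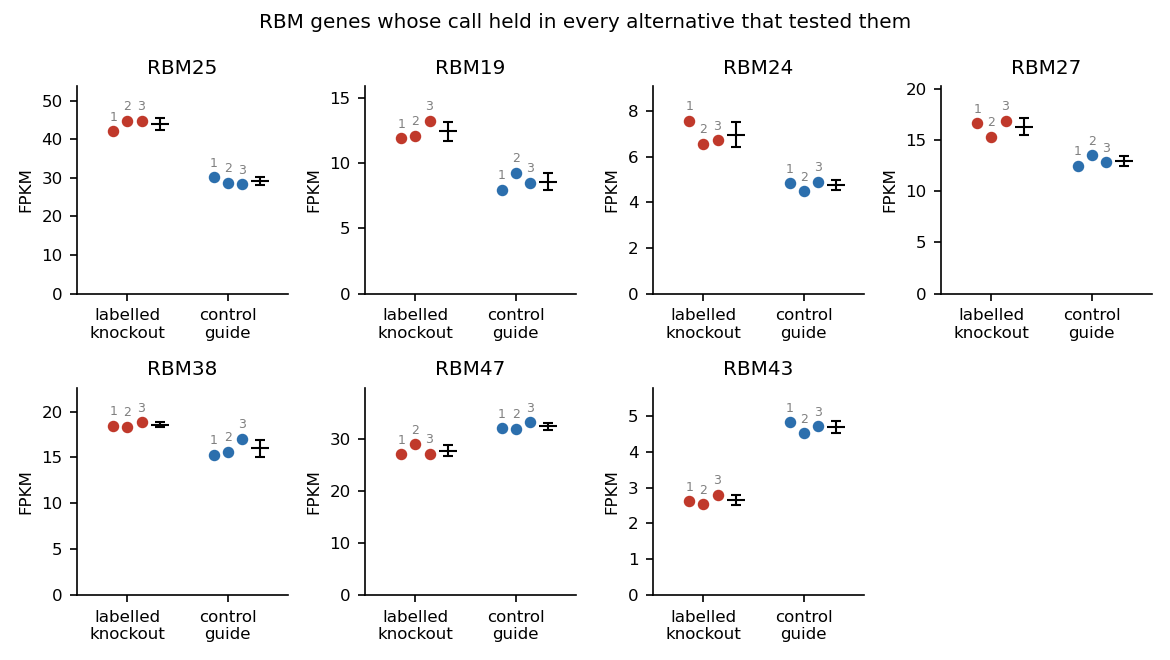
FPKM in each library for the 7 RBM genes whose call held in every alternative that tested them, with libraries labelled knockout on the left, controls on the right, library numbers above the points, and mean ± SD of 3 libraries in black. RBM25, RBM19, RBM24, RBM27 and RBM38 are higher and RBM47 and RBM43 lower in all 3 libraries labelled knockout than in any control.

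Of the 8 genes for spliceosome and exon junction complex proteins, 4 rose (RBM25, RBM41, RBM48 and RBM17) and 0 fell by limma, also 0 at an unadjusted p under 0.05. This and the other role groups are small, and their counts are to be read beside the 25.3% of all tested genes that rose, the 29.2% that fell and the 54.5% called. RBM41, whose protein is tied to the minor spliceosome that removes a rare class of introns, had 5.96, 5.66 and 6.82 FPKM in the libraries labelled knockout and 3.81, 4.93 and 4.94 FPKM in the controls (log2 difference 0.37, SE 0.104, limma adjusted p = 0.0212). Control library 1 lay below the other controls, and the call was lost without knockout library 3 (log2 difference 0.30, with adjusted p over all alternatives of 0.00939 to 0.0653). RBM48, which acts on minor introns together with ARMC7, had 3.99, 4.73 and 4.49 FPKM in the libraries labelled knockout and 3.36, 3.69 and 3.597 FPKM in the controls, a log2 difference of 0.25 (SE 0.073, limma adjusted p = 0.0249). The values did not overlap, yet the call of RBM48 was lost without knockout library 2 (0.20), knockout library 3 (0.23), control library 1 (0.22) or control library 3 (0.25), and without the trend over GC and length (0.20).

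RBM17 (SPF45), which binds factors at the 3′ splice site through a U2AF homology motif, had 45.5, 44.5 and 44.4 FPKM in the libraries labelled knockout and 40.3, 43.5 and 40.2 FPKM in the controls. The gap between the lowest library labelled knockout and control library 2 was narrow. The log2 difference of 0.11 (SE 0.040, limma adjusted p = 0.0449) passed only just, and the call was lost without any 1 library other than control library 2 (0.10 without control library 1, 0.10 without control library 3, and 0.10, 0.12 and 0.12 without knockout libraries 1, 2 and 3), with quantile normalization (0.10), with no variance trend or with a replicate block, and without the trend over GC and length (0.05).

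The 4 genes of this group that did not pass were RBM8A, RBM39, RBM22 and RBM42. RBM8A encodes Y14, a core protein of the exon junction complex that marks spliced mRNA, and had 64.9, 61.2 and 54.7 FPKM in the libraries labelled knockout and 47.5, 58.2 and 55.9 FPKM in the controls (log2 difference 0.16, SE 0.089, limma adjusted p = 0.168). Control library 1 of RBM8A lay below the other 5 libraries. RBM39, a U2AF-related splicing factor and the target of the degrader drug indisulam, had 144, 139.6 and 137 FPKM in the libraries labelled knockout and 141, 136 and 143 FPKM in the controls. Its groups overlapped, with a log2 difference of 0.00096 and an SE of 0.032. RBM22, which contacts RNA at the heart of the activated spliceosome, had 32.1, 34.2 and 33.4 FPKM in the libraries labelled knockout and 32.8, 32.9 and 36.4 FPKM in the controls (log2 difference -0.03, SE 0.051, limma adjusted p = 0.62). RBM42, found in the tri-snRNP, had 43.6, 40.9 and 38.4 FPKM in the libraries labelled knockout and 43.4, 46.1 and 43.8 FPKM in the controls (log2 difference -0.12, SE 0.052, limma adjusted p = 0.0966). Without knockout library 1 RBM42 was called lower (-0.16), and with GC and length trends removed its difference was 0.12.

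Partner genes of these proteins moved in both directions. Their counts stand beside 25.3% of all tested genes that rose and 29.2% that fell, and their medians beside -0.018. Among 17 tested genes of the exon junction complex and nonsense-mediated decay, 9 rose and 4 fell (median log2 difference 0.13). The kinase gene SMG1 rose by 0.43 and the helicase gene UPF1 by 0.31 on the log2 scale, while PYM1, which strips the complex from mRNA, had a difference of -0.35. Of 22 genes for recognition of the 3′ splice site by U2 proteins, 13 rose and 1 fell (median 0.15), with DDX46 at 0.52, SF3B1 at 0.45 and DHX15 at 0.38. For activated and catalytic spliceosome genes the count was 7 higher and 5 lower of 25 (median -0.034), led by SYF2 at -0.52, AQR at 0.44 and CWC22 at 0.41, and these shares were close to those of all tested genes. Minor spliceosome genes had 2 higher and 4 lower of 12 (median -0.12), also near those shares. There, ZMAT5 differed by -0.71 and SNRNP25 by 0.49, and ARMC7, the partner of RBM48, by -0.40 with 12.4, 11.3 and 12.2 FPKM in the libraries labelled knockout and 15.7, 17.6 and 15.2 FPKM in the controls. RBM48 and ARMC7 thus lay on opposite sides of 0.

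RBM5, RBM6 and RBM10 encode related regulators of alternative splicing that act near the 3′ splice site, and losses of RBM5 and RBM10 are known from lung cancer. Of the 3, RBM6 passed the test, and 0 of the 3 fell by limma (0 at an unadjusted p under 0.05). RBM6 had 40.2, 41.9 and 39.9 FPKM in the libraries labelled knockout and 39.6, 34.9 and 34.4 FPKM in the controls, where control library 1 nearly reached the lowest library labelled knockout. Its log2 difference was 0.16 (limma adjusted p = 0.0466), and the call was lost without knockout library 1 (0.17), 2 (0.14) or 3 (0.18), without control library 2 (0.14) or 3 (0.13), with quantile normalization, no variance trend or a replicate block, and without the trend over GC and length (0.10).

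RBM5, the neighbour of RBM6 on chromosome 3, had 33.8, 34.9 and 37.7 FPKM in the libraries labelled knockout and 37.7, 37.01 and 37.3 FPKM in the controls (log2 difference -0.07, SE 0.045, limma adjusted p = 0.209), and was called lower without knockout library 3 (-0.12). RBM10 on the X chromosome had 29.6, 30.1 and 28.5 FPKM in the libraries labelled knockout and 29.4, 29.5 and 29.1 FPKM in the controls, with a log2 difference of 0.0019 and an SE of 0.035. The controls of RBM10 lay inside the range of the libraries labelled knockout. Exons of RBM5 and RBM6 share 456 bases on the same strand, so the authors' division of reads touches both. Within a library, RBM5 over RBM6 was 0.84, 0.833 and 0.944 in the libraries labelled knockout and 0.952, 1.06 and 1.08 in the controls, without overlap (exact 2-sided permutation p = 0.1, the smallest possible).

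**Figure D3:**
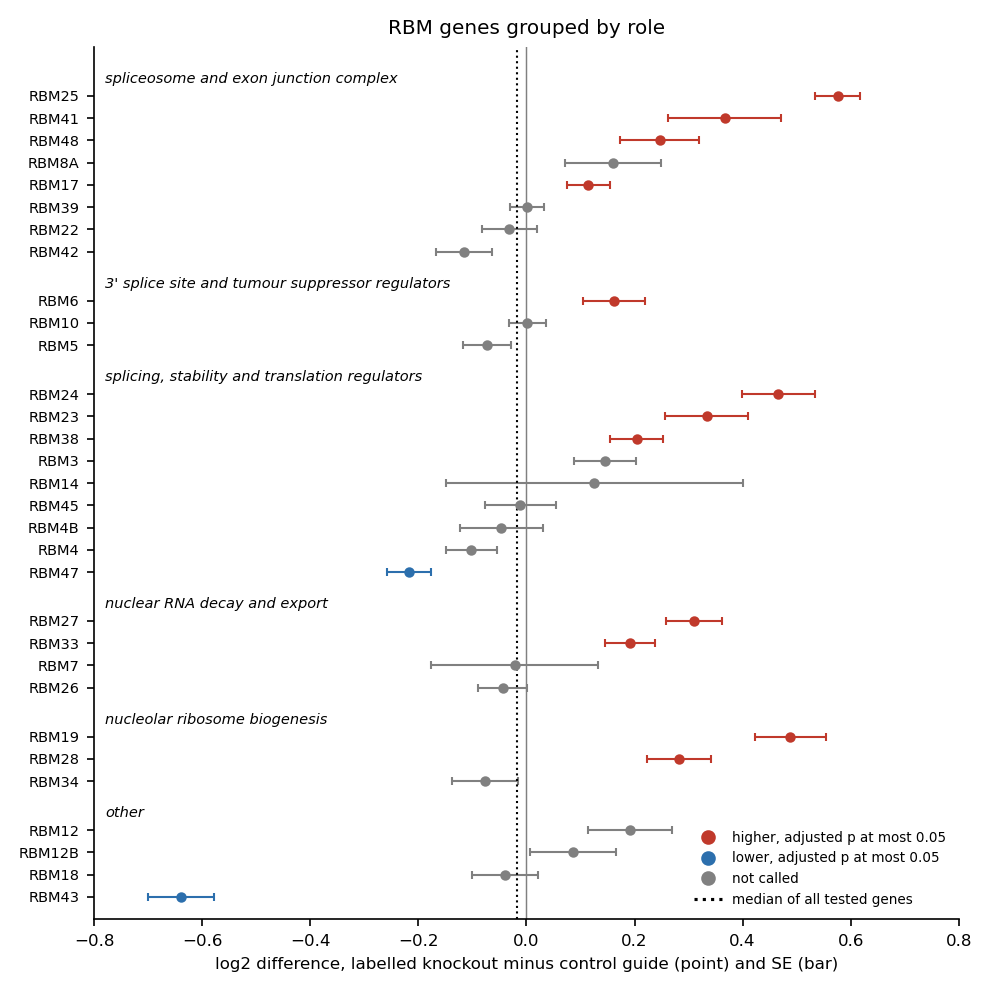
Points give the log2 difference of each RBM gene, labelled knockout minus control guide on the log2(FPKM + 1) scale, bars give the SE, and genes are grouped by role. Red marks the 12 genes called higher, blue the 2 called lower and grey the 17 not called, and the dotted line is the median of all tested genes at -0.018.

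Of 9 regulators of splicing, mRNA stability and translation, RBM24, RBM23 and RBM38 rose and RBM47 fell. RBM23, a paralog of RBM39, had 27.7, 27.4 and 30.7 FPKM in the libraries labelled knockout and 20.2, 23.01 and 24.5 FPKM in the controls (log2 difference 0.33, SE 0.077, limma adjusted p = 0.00914). All 3 libraries labelled knockout were above every control, though the call was lost with the GC and length trend removed (0.17). RBM38, a p53 target whose protein binds the mRNA of the cell cycle inhibitor CDKN1A, had 18.5, 18.4 and 18.9 FPKM in the libraries labelled knockout and 15.3, 15.6 and 17.1 FPKM in the controls (log2 difference 0.20, SE 0.049, limma adjusted p = 0.0109). Its call held in every alternative, with differences of 0.17 to 0.36.

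RBM47, a cofactor of the RNA editing enzyme APOBEC1 that is abundant in intestinal epithelium, was lower with 27.2, 29.1 and 27.3 FPKM in the libraries labelled knockout, against 32.1, 32.1 and 33.3 FPKM in the controls. On the log2 scale RBM47 fell, with a difference of -0.22 (SE 0.040, limma adjusted p = 0.00345) that spanned -0.31 to -0.19 over the alternatives, in each of which it was called. The intestinal markers VIL1 and CDX2 fell in the same libraries, and their part in the difference of RBM47 was not tested. RBM47 (ENSG00000163694) lies on chromosome 4 at 40423267 to 40630875 on the minus strand.

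RBM3 encodes a cold-inducible protein that, like its relative CIRBP, rises when cells are cooled and aids translation. RBM3 had 126, 120.1 and 118 FPKM in the libraries labelled knockout and 107, 103 and 119 FPKM in the controls, where control library 3 overlapped the other group. The log2 difference of 0.14 (SE 0.057) did not pass (limma adjusted p = 0.0679), and RBM3 was called higher without control library 3 (0.20), on the TPM scale (0.17) and with median centring (0.17). CIRBP was lower, with 70.1, 80.8 and 74.1 FPKM in the libraries labelled knockout and 148, 149.8 and 147 FPKM in the controls, a log2 difference of -0.97 (SE 0.051, limma adjusted p = 2.01e-05). All 3 libraries labelled knockout had CIRBP below every control by a wide gap, and RBM3 showed no such gap. Among the 11 tested relatives outside the RBM numbering, which include CIRBP, 3 rose and 4 fell, beside the same 25.3% and 29.2%, with the epithelial splicing regulator gene ESRP1 at -0.75 and the SR-related gene SREK1 at 0.31.

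RBM14, RBM4 and RBM4B lie within a short stretch of chromosome 11, and their values depend on how reads were divided. RBM14 encodes a transcription coactivator of paraspeckles, and RBM4 and RBM4B encode closely related regulators of splicing and translation. A read-through gene, RBM14-RBM4, shares 432 exonic bases with RBM14 and 1595 with RBM4, and the exons of RBM4 and RBM4B overlap on opposite strands over 590 bases. The coding sequences of RBM4 and RBM4B, taken as the longest open reading frame of their GENCODE 29 transcripts, share an identical run of 198 bases near the start, longer than a read of 150 bases. Over the longest protein-coding transcript of each gene, 169 windows of 75 bases were shared, 5.7% of those of RBM4 and 7.5% of those of RBM4B. The run is shown for both genes, with 12 more bases on either side, because read pairs that fall wholly within it cannot be assigned to either gene by sequence. Coding bases 16 to 237 are given, with the 4 differing bases in capitals.
RBM4: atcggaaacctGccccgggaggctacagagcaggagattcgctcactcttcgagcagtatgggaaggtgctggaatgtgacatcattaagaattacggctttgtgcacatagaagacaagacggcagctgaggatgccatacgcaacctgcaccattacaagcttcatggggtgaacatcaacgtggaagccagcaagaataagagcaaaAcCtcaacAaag
RBM4B: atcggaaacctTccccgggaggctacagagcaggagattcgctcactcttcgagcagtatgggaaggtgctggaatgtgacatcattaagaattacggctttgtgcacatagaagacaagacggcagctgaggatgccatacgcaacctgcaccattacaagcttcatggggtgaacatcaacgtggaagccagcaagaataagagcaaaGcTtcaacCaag
The identical run lies largely in the first RNA recognition motif of each protein.

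RBM14 was the most variable RBM gene, with 20.02, 20.2 and 39.04 FPKM in knockout-labelled libraries 1 to 3 and 25.99, 26.6 and 17.4 FPKM in control libraries 1 to 3. The groups overlapped, and 1 library of each group stood apart, knockout library 3 above and control library 3 below the other libraries of its group. The log2 difference of 0.13 had an SE of 0.274 (limma adjusted p = 0.722), and it was -0.18 without knockout library 3 and -0.06 without control library 3. RBM14-RBM4 had 32.7, 31.8 and 26.6 FPKM in the libraries labelled knockout and 21.9, 31.3 and 23.4 FPKM in the controls (log2 difference 0.25, SE 0.137, limma adjusted p = 0.161). In knockout library 3, where RBM14 was highest, RBM14-RBM4 was the lowest of its group. The controls differed, since control library 2 held the highest control value of both RBM14 and RBM14-RBM4.

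RBM4 had 59.8, 63.3 and 64.4 FPKM in the libraries labelled knockout and 66.5, 64.1 and 70.95 FPKM in the controls (log2 difference -0.10, SE 0.048, limma adjusted p = 0.11). It was called lower with the GC and length trend removed (-0.14). RBM4B had 11.3, 9.08 and 9.88 FPKM in the libraries labelled knockout and 10.3, 10.9 and 10.0 FPKM in the controls (log2 difference -0.05, SE 0.077, limma adjusted p = 0.637). Summed over RBM14, RBM4 and RBM14-RBM4, the libraries labelled knockout held 113, 115 and 130 FPKM and the controls 114, 122 and 112 FPKM, and the groups overlapped. RBM45, a protein found in inclusions of neurodegenerative disease, had 5.31, 5.68 and 5.44 FPKM in the libraries labelled knockout and 5.82, 5.76 and 5.04 FPKM in the controls (log2 difference -0.01, SE 0.065, limma adjusted p = 0.896).

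**Figure D4:**
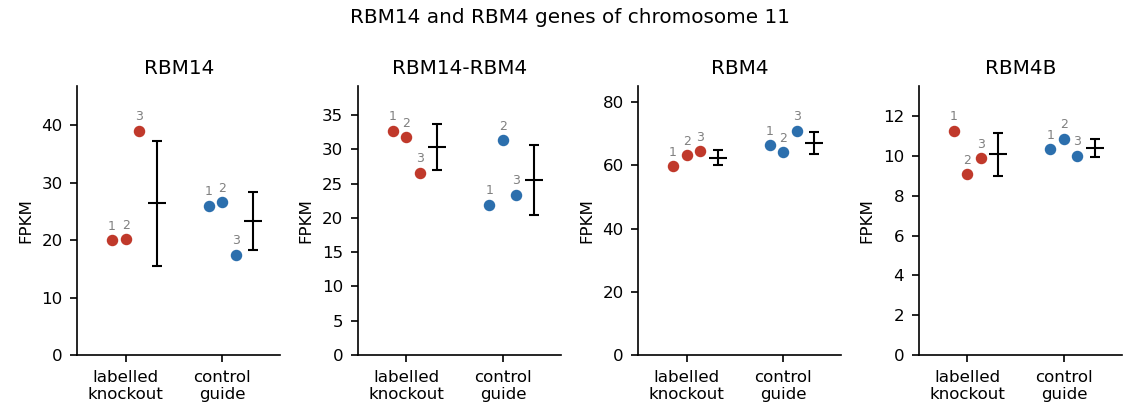
FPKM of RBM14, the read-through gene RBM14-RBM4, RBM4 and RBM4B in each library, labelled knockout on the left and control guide on the right, with library numbers above the points and mean ± SD of 3 libraries in black. RBM14 reaches 39.04 FPKM in knockout library 3 and 17.4 FPKM in control library 3, away from the other libraries of their groups.

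Among 4 genes for nuclear RNA decay and export, RBM27 and RBM33 rose and 0 fell by limma (0 at an unadjusted p under 0.05). RBM27 and its paralog RBM26 encode zinc finger proteins linked to the nuclear exosome through ZFC3H1. RBM27 had 16.7, 15.4 and 16.9 FPKM in the libraries labelled knockout and 12.5, 13.5 and 12.9 FPKM in the controls (log2 difference 0.31, SE 0.053, limma adjusted p = 0.0024). Its call held in every alternative, with differences of 0.19 to 0.35, the lowest of them without the trend over GC and length. Exons of RBM27 share 2989 bases with another protein-coding gene on the same strand (ENSG00000275740), 45.4% of the exonic bases of RBM27. That gene was listed with 1.02, 1.38 and 1.07 FPKM in the libraries labelled knockout and 0.216, 0.137 and 0.201 FPKM in the controls, under the filter, and its part in the difference of RBM27 was not tested.

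RBM26 did not pass the test, with 42.7, 42.2 and 44.6 FPKM in the libraries labelled knockout and 45.3, 46.3 and 42.1 FPKM in the controls (log2 difference -0.04, SE 0.045, limma adjusted p = 0.432), and it was called lower with the GC and length trend removed (-0.14). RBM26 over RBM27 within a library was 2.56, 2.75 and 2.64 in the libraries labelled knockout and 3.63, 3.42 and 3.28 in the controls (exact 2-sided permutation p = 0.1, the smallest possible). RBM33, whose protein binds m6A-marked RNA and the m6A eraser ALKBH5, had 11.1, 11.7 and 11.5 FPKM in the libraries labelled knockout and 9.68, 10.3 and 9.78 FPKM in the controls (log2 difference 0.19, SE 0.046, limma adjusted p = 0.0105). The groups did not overlap, but with the GC and length trend removed the difference of RBM33 was 0.04 and the call was lost.

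RBM7, which recruits the exosome to short-lived nuclear RNA together with MTREX and ZCCHC8, had 8.64, 7.19 and 7.72 FPKM in the libraries labelled knockout and 10.01, 8.22 and 6.104 FPKM in the controls. The controls of RBM7 were spread more widely than the other group and enclosed it, and the log2 difference of -0.02 had an SE of 0.154 (limma adjusted p = 0.914). Without control library 1 it was 0.13, and without control library 3 it was -0.19. Exons of RBM7 overlap those of C11orf71 on the opposite strand by 482 bases, and C11orf71 fell by 0.32 on the log2 scale. Its level was near the filter, with 0.708, 0.729 and 1.02 FPKM in the libraries labelled knockout and 1.2, 1.18 and 1.43 FPKM in the controls. At such a level the pseudocount makes the log2 difference smaller. Whether counting used strand is not stated, so reads of RBM7 and C11orf71 may not be separated. Of 19 tested genes of the nuclear exosome and its adaptors, 9 rose and 4 fell (median 0.21), beside 25.3% and 29.2% of all tested genes. ZFC3H1 rose by 0.64, MTREX by 0.46 and EXOSC4 by 0.45 on the log2 scale, while ZCCHC8 fell by 0.23. MTREX and ZCCHC8, the partners of RBM7, therefore passed in opposite directions.

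RBM19, RBM28 and RBM34 encode nucleolar proteins, of which RBM19 and RBM28 rose, and 0 fell by limma (0 at an unadjusted p under 0.05). RBM28, the counterpart of a yeast factor for the large ribosomal subunit, had 6.12, 6.25 and 6.91 FPKM in the libraries labelled knockout and 4.97, 5.16 and 5.18 FPKM in the controls (log2 difference 0.28, SE 0.059, limma adjusted p = 0.00621). The groups did not overlap, and the call was lost with the GC and length trend removed (0.12). RBM34 had 28.1, 27.1 and 28.95 FPKM in the libraries labelled knockout and 28.5, 28.04 and 32.5 FPKM in the controls (log2 difference -0.08, SE 0.061, limma adjusted p = 0.321). Of its exonic bases 51.5% overlap those of ARID4B on the same strand. ARID4B rose by 0.27 on the log2 scale, with 10.1, 9.89 and 11.03 FPKM in the libraries labelled knockout and 8.95, 7.97 and 8.41 FPKM in the controls, and its part in the value of RBM34 was not tested. Of 24 nucleolar partner genes 20 rose and 0 fell by limma (0 at an unadjusted p under 0.05), with a median log2 difference of 0.29, beside 25.3% of all tested genes that rose and 29.2% that fell. UTP20, part of the small subunit processome, rose by 0.79, the rRNA methyltransferase gene NOP2 by 0.73 and RRP1B by 0.64.

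The remaining RBM genes were RBM43, RBM12, RBM12B and RBM18, for which no role is given here. RBM43 fell most of all RBM genes, to 2.62, 2.53 and 2.803 FPKM in the libraries labelled knockout, against 4.83, 4.52 and 4.71 FPKM in the controls. The means were 2.65 ± 0.14 FPKM in the libraries labelled knockout and 4.69 ± 0.157 FPKM in the controls (SD, n = 3 each), without overlap. The log2 difference of -0.64 (SE 0.061, limma adjusted p = 0.000206) was called, and the call held in the 14 alternatives that kept it. RBM43 (ENSG00000184898) lies on chromosome 2 at 151247940 to 151261879 on the minus strand, and at this low level the pseudocount matters: the difference was -0.80 with a pseudocount of 0.1 FPKM.

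RBM12 had 31.3, 29.3 and 26.7 FPKM in the libraries labelled knockout and 27.6, 23.3 and 25.2 FPKM in the controls (log2 difference 0.19, SE 0.078, limma adjusted p = 0.074). It was called higher without knockout library 3 (0.25), without control library 1 (0.25), on the TPM scale (0.22) and with a replicate block. The difference was smaller and not called without knockout library 1 (0.14) or control library 2 (0.13), and smallest, at 0.06, without the trend over GC and length. Its exons share 575 bases with CPNE1 on the same strand, which fell, with 62.3, 65.3 and 58.8 FPKM in the libraries labelled knockout and 72.9, 77.6 and 71.9 FPKM in the controls (log2 difference -0.25). RBM12B had 7.58, 6.33 and 6.69 FPKM in the libraries labelled knockout and 6.29, 6.96 and 5.97 FPKM in the controls, with overlap (log2 difference 0.09, SE 0.080, limma adjusted p = 0.388). Its exons overlap those of FAM92A on the opposite strand over 28.5% of their bases. RBM18 overlapped as well, with 8.76, 7.69 and 8.24 FPKM in the libraries labelled knockout and 8.76, 8.06 and 8.64 FPKM in the controls (log2 difference -0.04, SE 0.060, limma adjusted p = 0.604).

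The ratio of paralogs within a library, which no scaling of the library changes, did not overlap between the groups for 4 of 7 paralog pairs examined, a share no higher than the 63% of single tested genes whose values did not overlap. RBM39 over RBM23 was 5.197, 5.09 and 4.46 in the libraries labelled knockout and 6.99, 5.92 and 5.84 in the controls, and RBM38 over RBM24 was 2.43, 2.79 and 2.81 in the libraries labelled knockout and 3.15, 3.47 and 3.48 in the controls. For both, as for RBM26 over RBM27 and RBM5 over RBM6 above, exact permutation (2-sided) gave p = 0.1, which 3 against 3 libraries cannot go below, or 0.175 adjusted over the 7 pairs. Ratios of RBM4 over RBM4B, RBM12 over RBM12B and RBM5 over RBM10 overlapped (exact permutation p = 0.7, 0.7 and 0.4).

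**Figure D5:**
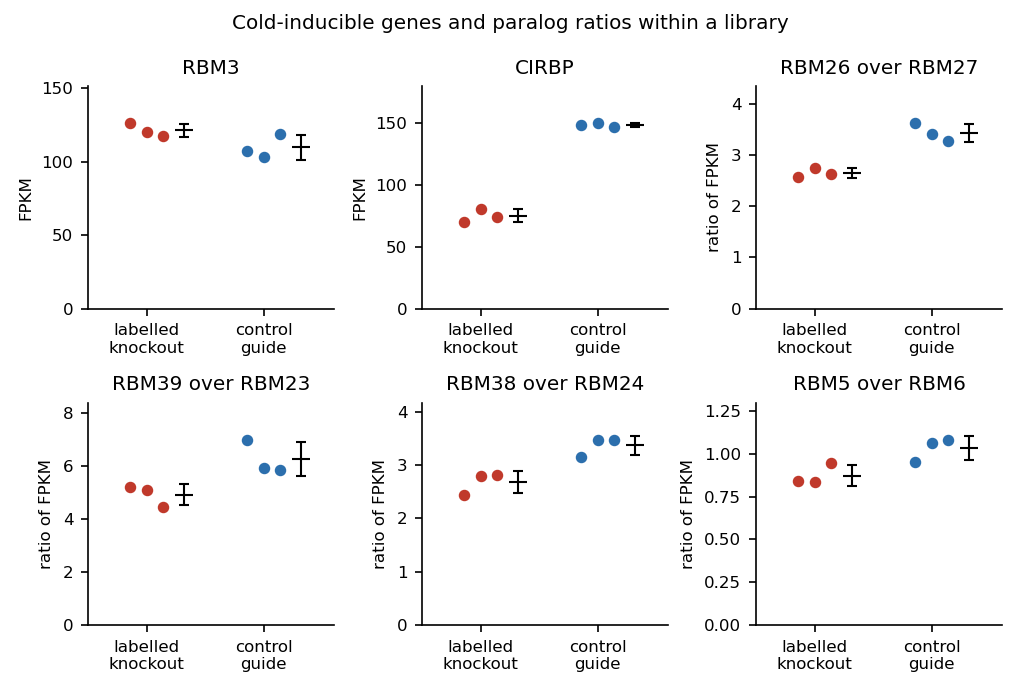
FPKM of the cold-inducible genes RBM3 and CIRBP, and ratios of FPKM within a library for 4 paralog pairs, with libraries labelled knockout on the left, controls on the right and mean ± SD of 3 libraries in black. CIRBP and the 4 ratios do not overlap between the groups, and RBM3 does.

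The 31 RBM genes lay on 17 chromosomes, with at most 4 on one, chromosome 11. Exons of 21 of them overlap another annotated gene and those of 13 a gene that is also listed. The called genes were not confined to 1 stretch: RBM19, RBM24, RBM25, RBM38, RBM43 and RBM47 lie on 6 different chromosomes.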

How the data were processed

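The authors deposited 1 table of FPKM values for 6 libraries, per the file headers. The tools named in the submitters' processing notes are StringTie 2.0.4 and HISAT2 2.2.1, with the build hg38, and per the labels' protocols libraries were read as pairs of 150 bases. Annotation, strand setting and row filter: not given in the sources used here. FPKM hold no read totals, so the depth is unknown and no counting interval is given. Reads from overlapping genes or near-identical copies are divided by estimation in such values.

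Of the 12793 genes, 11451 averaged 1 FPKM or more and were fitted on log2(FPKM + 1), which understates the change of low genes. limma 3.58.1 in R 4.3.3 compared the groups with no covariate and with variances that follow the mean level. Benjamini-Hochberg adjustment of the 2-sided p-values ran over all 11451 genes, with a threshold of 0.05. The fit was checked on simulated data. Coordinates, overlaps and coding sequences are from GENCODE 29, promoters from RefSeq on GRCh38.p14. Python 3.11.15, pandas 2.3.3 and matplotlib 3.10.9 made tables and figures.

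The RBM genes, partner lists and tests were chosen with earlier results of these data known. Every RBM gene is named, and in each partner list up to 3 called genes with the largest difference are named. ARMC7, ZCCHC8, CIRBP and genes overlapping an RBM gene were also given because an RBM gene's account turned on them. Of RBM genes with a wide spread or a changing call, each library's value is given. Alternatives were quantile normalization, median centring, rescaling to TPM, a fit without the variance trend, a pseudocount of 0.1, a filter at 5 FPKM or none, a replicate block, leaving out each library, and, added after seeing the data, removal of a spline trend over GC content and transcript length in each library.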

Additional observations from a re-analysis of the deposited data

How the results depend on the processing

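In at most 15 alternatives per gene, 7 of the 14 called RBM genes kept their call throughout (RBM19, RBM24, RBM25, RBM27, RBM38, RBM43 and RBM47), 7 lost it at least once, 6 uncalled genes gained one, and no called gene turned its direction. The count of RBM genes that rose was 9 to 11 when 1 library was left out, and the count that fell was 2 to 3. In those fits 21.8% to 22.8% of all tested genes rose and 25.5% to 26.6% fell. The median log2 difference of the RBM genes was 0.044 to 0.14. With the GC and length trend removed, 6 rose and 4 fell, beside 24.5% and 29.4% of all tested genes. Quantile normalization gave 10 of 31 that rose and 2 that fell, beside 29.4% and 25.3% of all tested genes. The TPM scale gave 14 and 2, beside 27.5% and 27%, and median centring 13 and 2, beside 28.3% and 26.6%. Without the variance trend 10 rose and 2 fell, beside 24.8% and 29%. The filter at 5 FPKM left 1 that fell, since RBM43 was not tested there, beside 28.9% of all tested genes. RBM15 was 1.45 to 1.51 higher on the log2 scale when 1 library was left out.

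Counts for partner lists moved as follows. Over the alternatives, 21.8% to 29.4% of all tested genes rose and 25.3% to 29.4% fell. Nuclear exosome genes that fell numbered 1 on the TPM scale, 1 with median centring, 2 with quantile normalization, 1 with a replicate block, 2 without the GC and length trend, and 1 to 3 without 1 library. Exon junction complex genes that fell numbered 2 with median centring and 1 to 4 without 1 library. Relatives of the RBM genes that rose numbered 1 without the GC and length trend and 1 to 2 without 1 library, and 3' splice site genes that fell numbered 1 to 2 without 1 library. The 3' splice site genes that rose numbered 10 with quantile normalization, no variance trend or a replicate block, and 10 to 12 without 1 library. Exon junction complex genes that rose numbered 7 with no variance trend, 8 with a replicate block or a pseudocount of 0.1 FPKM, and 7 to 8 without 1 library. The cause was not tested.

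Replicate numbers did not pair the libraries: deviations of same-numbered libraries correlated at -0.0367 to 4.54e-05. With a replicate block 11 RBM genes rose and 2 fell, beside 23.1% and 27.4% of all tested genes. Depth is unknown. With 3 libraries per group, differences that are small beside the spread between libraries may have been missed.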
